A study of Mus musculus with 3 samples.

Results

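The genes described here are the triggering receptors expressed on myeloid cells (TREM) that the 3 count tables hold as Trem1, Trem2, Trem3 and Treml4, the adaptors Tyrobp and Hcst, and the kinase Syk. They were chosen by name, and they are 7 of the 27998 genes in each table. TREM proteins are receptors on the surface of macrophages, monocytes and neutrophils. Most have too short a tail to signal and pair in the membrane with Tyrobp (also called DAP12), whose tail carries an activation motif (ITAM) that Src family kinases phosphorylate and the kinase Syk then binds. Trem2 binds lipids and apolipoproteins and is known from microglia and other phagocytic macrophages, whereas Trem1 is known as an amplifier of inflammatory signals on neutrophils and monocytes.

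The cells were sciatic nerve macrophages of C57BL/6 mice, an inbred strain, profiled by droplet single-cell RNA sequencing. Nerve was taken in steady state (uninjured), 1 day after nerve crush and 5 days after nerve crush. A crush severs the axons and leaves the nerve sheath in place, and blood monocytes then enter the nerve. There was 1 library per time point, so no comparison has a replicate, no p-value is given, and time and library cannot be told apart. The sources used here do not state how cells were sorted or how many animals were pooled.

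The steady-state, day 1 and day 5 libraries kept 728, 2793 and 2059 cells and 1656510, 7963091 and 5524496 unique molecular identifiers (UMIs, each marking 1 captured RNA molecule). The median depth was 2238.5, 2555 and 2473 UMIs per cell. Levels are CPM, the summed UMIs of a gene per 1000000 UMIs of the library or cluster, with exact 95% intervals that cover counting error only. All 9 macrophage markers examined were detected in each library. Monocyte markers summed to 430 CPM in steady state, 4600 CPM on day 1 and 1914 CPM on day 5. Neutrophil markers summed to 129, 106 and 39.8 CPM in the same order, and the defining neutrophil gene Ly6g had 0 UMIs in all 3 libraries. Most of that sum was Mmp9 in steady state, whereas S100a8 had 0, 238 and 11 UMIs (29.9 CPM on day 1 and 1.99 CPM on day 5) and Mmp8 1.21, 18.0 and 0.543 CPM at the 3 times. Between 2 and 11 cell barcodes were shared by each pair of libraries.

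All 4 receptor genes lie in 1 gene cluster of 9 TREM family genes on mouse chromosome 17 (GRCm38, chr17:48125605-48367176). Trem1 (chr17:48232768-48246924), Trem3 (chr17:48247777-48258841) and Treml4 (chr17:48264295-48275360) follow each other on the plus strand, with 852 bases between Trem1 and Trem3 and 5453 bases between Trem3 and Treml4. Trem2 (chr17:48346401-48354147) is on the same strand near the other end of the cluster. Tyrobp (chr7:30413760-30417585, plus strand) and Hcst (chr7:30417712-30419854, minus strand) end 126 bases apart and do not overlap. Syk is at chr13:52583173-52648792 on the plus strand.

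The promoter sequences of Trem2, Trem1 and Treml4 are shown because these neighbouring genes differed in when they were detected. Each runs from 250 bases before to 50 bases after the start site in RefSeq's annotation of GRCm38.p6, 5′ to 3′ on the plus strand. Capitals mark matches to 5 motifs searched on both strands.
Trem2 promoter, chr17:48346151-48346450: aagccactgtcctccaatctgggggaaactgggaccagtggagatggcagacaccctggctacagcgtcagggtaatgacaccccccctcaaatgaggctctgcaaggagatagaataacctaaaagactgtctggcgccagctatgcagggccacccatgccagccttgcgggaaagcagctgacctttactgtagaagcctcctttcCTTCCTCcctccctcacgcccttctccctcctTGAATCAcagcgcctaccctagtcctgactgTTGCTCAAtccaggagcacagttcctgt
Trem1 promoter, chr17:48232489-48232788: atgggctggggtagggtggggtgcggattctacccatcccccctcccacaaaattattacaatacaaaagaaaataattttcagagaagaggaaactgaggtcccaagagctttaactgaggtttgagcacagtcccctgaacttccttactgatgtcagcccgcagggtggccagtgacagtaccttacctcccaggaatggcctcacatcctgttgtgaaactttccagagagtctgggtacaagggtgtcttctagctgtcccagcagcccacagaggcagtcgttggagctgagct
Treml4 promoter, chr17:48264045-48264344: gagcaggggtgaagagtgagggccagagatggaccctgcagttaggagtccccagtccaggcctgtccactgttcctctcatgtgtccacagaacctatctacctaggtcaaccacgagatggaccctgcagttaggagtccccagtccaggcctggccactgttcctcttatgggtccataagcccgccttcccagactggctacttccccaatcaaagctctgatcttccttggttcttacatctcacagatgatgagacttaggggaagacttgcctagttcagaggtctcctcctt
In the Trem2 promoter the capitals are, in order, CTTCCTC, which is the reverse complement of the PU.1/ETS core GAGGAAG, starting 41 bases before the start site, TGAATCA, a match to the AP-1 motif TGANTCA, starting 9 bases before it, and TTGCTCAA, a match to the C/EBP motif TTGCNNAA, starting at base 23 after it. None of the matches overlap. Of 32851 promoters of the same length, 13.6% held GAGGAAG, 7.81% held TGANTCA and 10.8% held TTGCNNAA. The other motifs searched were the hypoxia response core ACGTG, in 19.6% of promoters, and the MITF and TFE E-box CACGTGA, in 3.77%. No match to the 5 motifs was found in the printed Trem1 and Treml4 windows, nor in those of Hcst and Syk. Promoters were matched for 5 of the 7 genes.

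Trem2, the receptor for lipids and apolipoproteins, was present in uninjured nerve and was higher at both times after crush. It had 386 CPM in steady state (356 to 417, from 639 UMIs), 604 CPM on day 1 (587 to 621, from 4809 UMIs) and 1156 CPM on day 5 (1128 to 1184, from 6385 UMIs). The 3 counting intervals did not overlap. Day 1 was 1.57-fold higher than steady state (1.44 to 1.70), day 5 was 3.0-fold higher than steady state (2.76 to 3.25) and day 5 was 1.91-fold higher than day 1 (1.84 to 1.99).

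The share of cells in which Trem2 was detected followed the same order. With each cell thinned to 1000 UMIs, at least 1 Trem2 UMI was found in 22.6% of steady-state cells (19.4 to 26.0), 38.5% of day 1 cells (36.6 to 40.4) and 56.8% of day 5 cells (54.5 to 59.2). Without thinning the shares were 34.1%, 61.1% and 74.3%. Thinning left out the 90, 297 and 282 cells that had fewer than 1000 UMIs. For comparison with cells that carry little Trem2, 0 of 18 dendritic cell-like cells had a Trem2 UMI (exact upper limit 18.5%), at a median of 3600 UMIs per cell, and 1 of 10 fibroblast-like cells had 1 (exact interval 0.253 to 44.5%).

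Cells with many Trem2 molecules were also more frequent after crush. Cells with at least 5 Trem2 UMIs, counted without thinning, made up 3.71% of steady-state cells, 10.1% of day 1 cells and 23.7% of day 5 cells. These cells held 32.7%, 41.3% and 65.0% of the Trem2 UMIs of their libraries. A fixed cut of 5 UMIs depends on level and depth, so these shares do not show that Trem2 became more concentrated. The 73, 279 and 206 cells with the most Trem2 UMIs, an equal share of the cells of each library, gave the reverse order. They held 58.2%, 40.8% and 38.5% of the Trem2 UMIs. Detected cells held 2.58, 2.82 and 4.18 Trem2 UMIs on average at the 3 times.

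**Figure D1:**
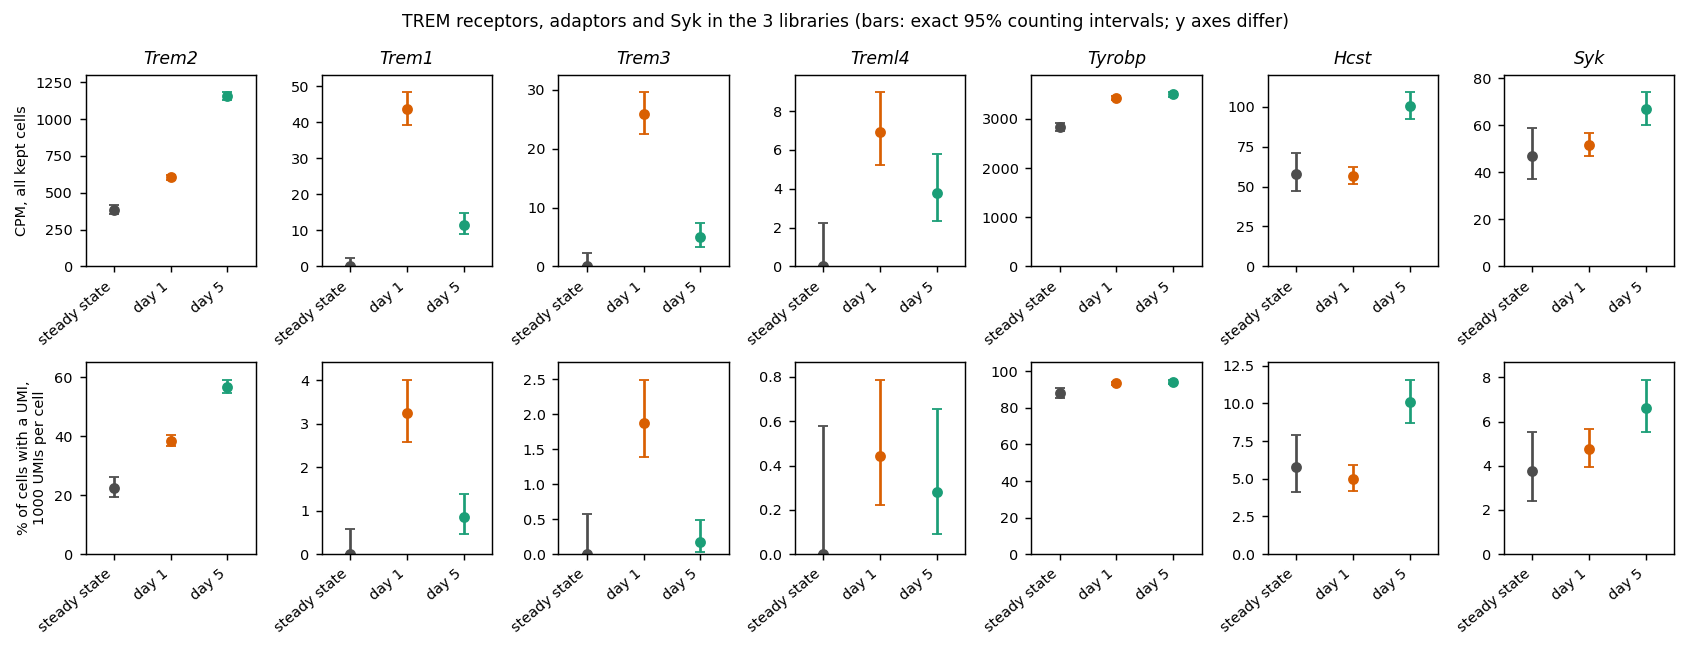
Level of each gene in CPM (top) and percent of cells with at least 1 UMI after thinning to 1000 UMIs per cell (bottom) in the steady-state, day 1 and day 5 libraries, 1 point per library with its exact 95% counting interval. Trem2 stands at 386, 604 and 1156 CPM, Trem1 and Trem3 are highest on day 1, and Tyrobp stays between 2837 and 3496 CPM.

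Trem1, the inflammatory receptor, was not detected in steady state and was highest on day 1. It had 0 UMIs in steady state, where 3 counts would be 1.81 CPM, 43.6 CPM on day 1 (39.1 to 48.4, from 347 UMIs) and 11.6 CPM on day 5 (8.92 to 14.8, from 64 UMIs). Counting 3 UMIs in place of 0, day 1 was 24.1-fold and day 5 6.40-fold higher than steady state. The exact lower limits of these ratios, taken from the count of 0 itself, were 19.5-fold and 5.05-fold. Day 5 was 3.76-fold lower than day 1 (2.87 to 4.99). In thinned cells Trem1 was found in 3.25% of day 1 cells and 0.844% of day 5 cells; without thinning the shares were 8.59% and 1.94%. None of the 728 steady-state cells had a Trem1 UMI, which limits the share of cells with a UMI to 0.412% (3 counts) or 0.505% (exact interval), not the share of cells that express the gene.

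Trem3, a DAP12-coupled receptor known in mouse, had the same order of levels as its neighbour Trem1. It had 0 UMIs in steady state, 25.9 CPM on day 1 (22.5 to 29.7, from 206 UMIs) and 5.07 CPM on day 5 (3.37 to 7.33, from 28 UMIs). By 3 counts, day 1 was 14.3-fold and day 5 2.80-fold higher than steady state (exact lower limits 11.5 and 2.13). Day 5 was 5.10-fold lower than day 1 (3.43 to 7.87). In thinned cells Trem3 was found in 1.88% of day 1 cells and 0.169% of day 5 cells; without thinning the shares were 4.87% and 0.874%. Among 10 fibroblast-like cells 2 held a Trem3 UMI (exact interval 2.52 to 55.6%) and 0 held Trem1, Treml4, Hcst or Syk, so the Trem3 share alone is not read as expression. Trem1 and Trem3 therefore shared both their absence from the steady-state counts and their higher level on day 1 than on day 5.

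Treml4, a mouse receptor known for binding dying cells, was the member with the fewest UMIs. It had 0 UMIs in steady state, 6.91 CPM on day 1 (5.20 to 8.99, from 55 UMIs) and 3.80 CPM on day 5 (2.35 to 5.81, from 21 UMIs). By 3 counts, day 1 was 3.81-fold and day 5 2.10-fold higher than steady state (exact lower limits 2.999 and 1.561). Day 5 was 1.82-fold lower than day 1, with an interval from 1.08 to 3.16. The day 1 and day 5 intervals of the levels themselves overlapped. In thinned cells it was found in 0.441% of day 1 cells and 0.281% of day 5 cells, and without thinning in 1.47% and 0.777%. Treml4 stayed below 10 CPM in every library, so it was outside the counts of genes given next.

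Counts of genes past 2-fold were limited to those reaching 10 CPM in 1 or both of the libraries compared, which 6 of the 7 members did between day 1 and steady state. On day 1, 2 of them (Trem1 and Trem3) were higher by 2-fold or more and 0 were lower by as much. Over all 7036 genes counted, 16.4% were higher and 14.8% lower by that margin. Between day 5 and steady state, 2 of 5 members (Trem2 and Trem1) were higher by 2-fold or more and 0 lower, against 9.85% higher and 11.1% lower of all 6876 genes. Between day 5 and day 1, 0 of 6 members were higher by 2-fold or more and 2 (Trem1 and Trem3) lower, against 4.91% higher and 5.48% lower of all 6655 genes. The median log2 ratio of the counted members was 0.46, 0.79 and 0.21 in the 3 comparisons, against 0.11, 0.01 and -0.11 over all genes. Trem1 and Trem3 had 0 UMIs in steady state and reached 10 CPM only after crush. Passing that minimum therefore already fixed their 2-fold calls against steady state. With so few members these counts are a description only.

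Other genes of the TREM cluster were also higher after crush than in steady state. Of the TREM family list outside the members, 2 of 2 counted genes were at least 2-fold higher on day 1 than in steady state. On day 5 the number was 1 of 1 against steady state. Between day 5 and day 1, 1 of 2 was at least 2-fold lower. The corresponding shares of all genes were 16.4%, 9.85% and 5.48%. The counted genes, B430306N03Rik and Treml2, reached 10 CPM only after crush. Passing the minimum of 10 CPM therefore already fixed their 2-fold calls against steady state. B430306N03Rik, annotated in RefSeq as Treml6, had 1.21 CPM in steady state, 33.7 CPM on day 1 and 15.2 CPM on day 5. Treml2 had 0 UMIs in steady state, 16.1 CPM on day 1 and 9.05 CPM on day 5. A530064D06Rik, which RefSeq also names Trem4, had 1.81 CPM in steady state, 17.8 CPM on day 1 and 8.33 CPM on day 5; it was added after its values had been seen. The remaining cluster genes were at or near 0, with 0, 0 and 1 UMIs for Treml1 and no level above 0.362 CPM for 9830107B12Rik. Thus, counting a decrease of any size, 6 of the 9 genes were lower on day 5 than on day 1. Such decreases were common, since the median log2 ratio of all 6655 counted genes was -0.11 in that comparison. Trem2 was the only gene of the cluster above 10 CPM that was higher on day 5 than on day 1.

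**Figure D2:**
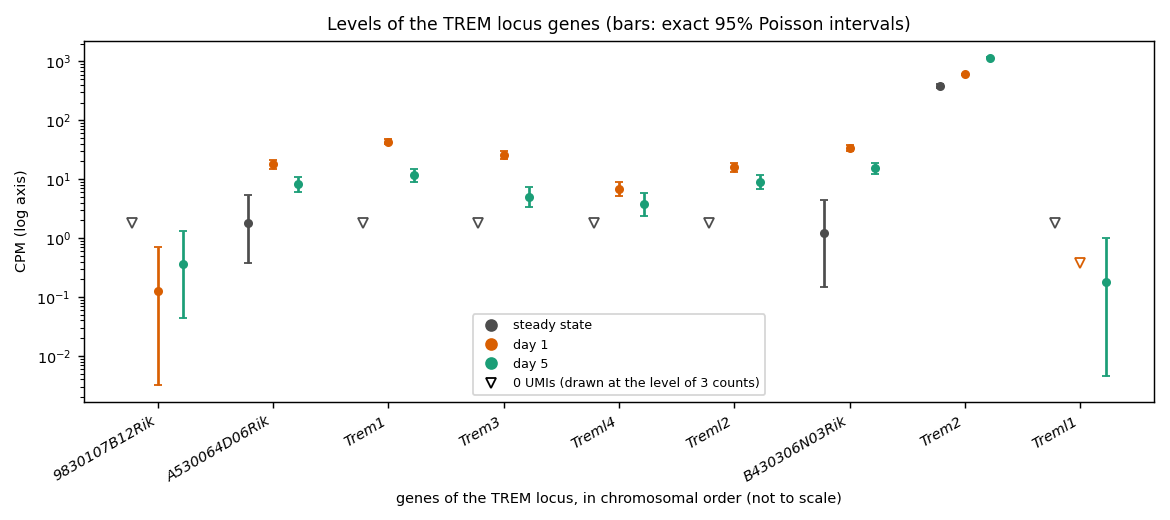
Levels in CPM (log axis) of the 9 genes of the TREM cluster, in chromosomal order, in the steady-state, day 1 and day 5 libraries, with exact 95% Poisson intervals; open triangles mark 0 UMIs and are drawn at the level of 3 counts. Trem2 was at 386 CPM or more at all 3 times, and each of the other 8 genes stayed below 50 CPM in all 3 libraries.

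Tyrobp, the adaptor through which these receptors signal, varied far less than the receptors. It had 2837 CPM in steady state (2757 to 2920), 3413 CPM on day 1 (3373 to 3454) and 3496 CPM on day 5 (3447 to 3545). Day 1 was 1.20-fold higher than steady state (1.17 to 1.24), day 5 was 1.23-fold higher than steady state (1.19 to 1.27) and day 5 was 1.02-fold higher than day 1 (1.00 to 1.04). In thinned cells Tyrobp was found in 88.2% of steady-state, 93.3% of day 1 and 94.4% of day 5 cells. Free RNA may add to this share, since 5 of 10 fibroblast-like cells had a Tyrobp UMI at a median of 1039 UMIs per cell, and Lyz2, a macrophage and monocyte gene, was found in 9 of those 10 cells. In the dendritic cell-like cluster Tyrobp was at 1926 CPM.

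The balance between receptors and adaptor differed between the libraries. There were 13.6 Trem2 UMIs per 100 Tyrobp UMIs in steady state (12.5 to 14.8), 17.7 on day 1 (17.2 to 18.2) and 33.1 on day 5 (32.1 to 34.0). Trem1, Trem3 and Treml4 together had 0 UMIs per 100 Tyrobp UMIs in steady state, 2.24 on day 1 (2.06 to 2.42) and 0.585 on day 5 (0.482 to 0.704). For each 100 Trem2 UMIs there were 7.22 Trem1 UMIs on day 1 (6.45 to 8.05) and 1.00 on day 5 (0.771 to 1.28). These are ratios of captured molecules in the same library, and capture may differ between genes.

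Hcst (DAP10), an adaptor that recruits phosphatidylinositol 3-kinase instead of Syk, was higher on day 5. It had 58.0 CPM in steady state (46.9 to 70.8), 56.9 CPM on day 1 (51.8 to 62.4) and 100 CPM on day 5 (92.3 to 109). The steady-state and day 1 intervals overlapped, with a ratio of 0.982 (0.786 to 1.24). Day 5 was 1.73-fold higher than steady state (1.39 to 2.18) and 1.77-fold higher than day 1 (1.56 to 2.0). In thinned cells Hcst was found in 5.80%, 5.01% and 10.1% of cells in steady state, on day 1 and on day 5.

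Syk, the kinase that docks on phosphorylated ITAMs, had 47.1 CPM in steady state (37.2 to 58.8), 51.6 CPM on day 1 (46.7 to 56.9) and 67.0 CPM on day 5 (60.3 to 74.2). The steady-state and day 1 levels did not differ beyond counting error. Day 5 was 1.42-fold higher than steady state (1.11 to 1.84) and 1.30-fold higher than day 1 (1.12 to 1.50). In thinned cells Syk was found in 3.76%, 4.77% and 6.64% of cells at the 3 times. On day 1, 1 cell held 25 of the 411 Syk UMIs of its library.

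Joint detection within cells was read after thinning to 1000 UMIs, because deeper cells detect more of every gene. On day 1, Trem2 was found in 37.0% of the Trem1-positive cells (30 of 81; 26.6 to 48.5) and in 38.6% of the Trem1-negative cells (36.6 to 40.5). These intervals overlapped. Without thinning the shares were 61.7% and 61.1%, and thinned to 1500 UMIs they were 41.7% (32.6 to 51.3) and 50.5% (48.3 to 52.8). On day 5, Trem2 was found in 6 of 15 Trem1-positive cells (exact interval 16.3 to 67.7%) and in 57.0% of Trem1-negative cells.

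Trem3-positive cells gave an order that depended on depth. On day 1, Trem2 was found in 29.8% of Trem3-positive cells (14 of 47; 17.3 to 44.9) and in 38.7% of Trem3-negative cells after thinning, but in 66.2% (57.6 to 74.1) and 60.9% without thinning. No order is read from these shares. Trem1 and Trem3 were found together in 5 thinned day 1 cells. Trem3 was in 6.17% of Trem1-positive cells (2.03 to 13.8) and in 1.74% of Trem1-negative cells (1.26 to 2.34), and these intervals overlapped. The unthinned shares, in which depth per cell is not held equal, had the same order, at 11.7% (7.89 to 16.4) and 4.23% (3.48 to 5.08).

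Nearly all receptor-positive cells also held the adaptor. Tyrobp was found in 97.5% of Trem1-positive day 1 cells (91.4 to 99.7), and in 88.2%, 92.8% and 95.2% of Trem2-positive cells in steady state, on day 1 and on day 5. Tyrobp was about as frequent in cells without the receptors, at 93.2% of Trem1-negative day 1 cells and at 88.3%, 93.7% and 93.2% of cells with 0 Trem2 UMIs at the 3 times. The mean number of Tyrobp UMIs per cell was ordered as that of Trem2 on day 5 and not at the other times. On day 5, thinned cells with 0, 1 and at least 2 Trem2 UMIs held a mean of 3.45, 3.64 and 3.91 Tyrobp UMIs. The corresponding means were 2.98, 3.01 and 2.65 in steady state and 3.50, 3.60 and 3.30 on day 1.

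**Figure D3:**
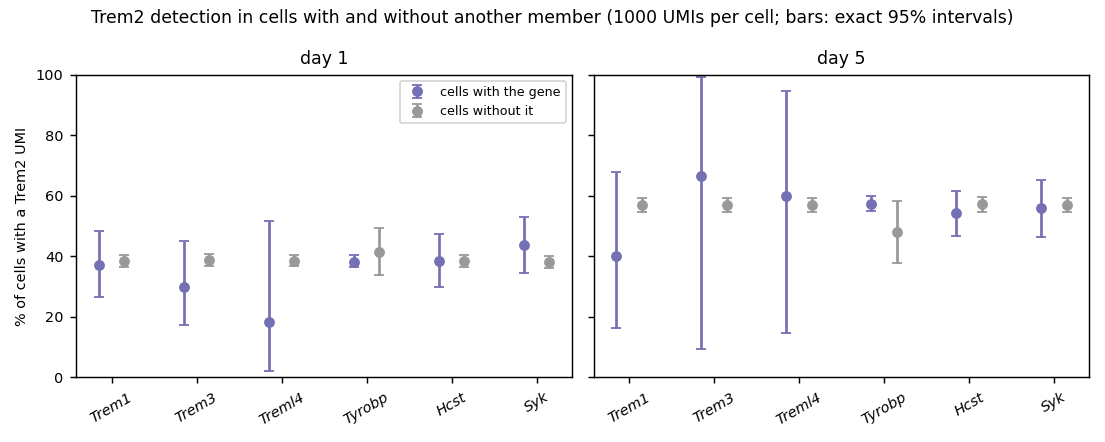
Percent of cells with a Trem2 UMI among cells with (purple) and without (grey) each of the other genes, on day 1 and day 5, after thinning to 1000 UMIs per cell; bars are exact 95% intervals. On day 1 the Trem1-positive cells stand at 37.0% and the Trem1-negative cells at 38.6%, and the intervals are wide where few cells are positive.

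The cells were grouped into 12 clusters without using the 7 genes or their pathway genes. Clusters were formed from all libraries together, and those that did not meet the marker rule are called by their number and 2 leading genes. In steady state, Trem2 differed between cell groups. The epineurial macrophage-like cluster 1 (Cd209f, Cd209g; 200 cells) had 215 CPM (173 to 263), against 446 CPM in the other 528 steady-state cells, 2.08-fold lower (1.67 to 2.62). Syk ran the other way, at 85.4 CPM in cluster 1 against 33.5 CPM in the other cells, 2.55-fold higher (1.59 to 4.07). Tyrobp was at 2814 CPM in cluster 1 against 2846 CPM in the other cells, a ratio of 0.989 (0.926 to 1.06).

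Cluster 1 also held 60 day 5 cells, which allowed Trem2 to be compared within it. It was at 693 CPM in the day 5 cells (544 to 870), against 215 CPM in the steady-state cells, 3.23-fold higher (2.35 to 4.43). Tyrobp in the same cells was 1.29-fold higher (1.14 to 1.44), with 3616 CPM on day 5 against 2814 CPM in steady state. Trem1, Trem3 and Treml4 had 0 UMIs in cluster 1 in both libraries.

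On day 1, Trem2 was detected in all 7 clusters with at least 50 cells. Its level ran from 317 CPM in cluster 10 (H2-Ab1, H2-DMb1; 105 cells; 265 to 376) to 716 CPM in cluster 5 (Pf4, Fabp5; 886 cells; 671 to 763). Cluster 12 (Cxcl3, Ppbp; 574 cells), at 694 CPM (659 to 730), did not differ from cluster 5 beyond counting error. The monocyte-like cluster 8 (Lrg1, Chil3; 824 cells) had 585 CPM, against 615 CPM in the other day 1 cells, a ratio of 0.952 (0.897 to 1.01). Cluster 11 (Ccnyl1, Stard6; 125 cells) had 405 CPM, cluster 4 (Olfml2b, Sipa1l2; 90 cells) had 507 CPM and cluster 6 (Cxcl10, Rsad2; 104 cells) had 577 CPM.

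Trem1 and Trem3 were less evenly spread on day 1. Trem1 was at 55.6 CPM in the monocyte-like cluster 8 against 36.1 CPM in the other day 1 cells, 1.54-fold higher (1.24 to 1.91). It was as high in cluster 10, at 58.1 CPM (37.2 to 86.4), and in cluster 12, at 50.3 CPM (41.2 to 60.7), and had 0 UMIs in cluster 11. Trem3 was at 45.1 CPM in cluster 8 against 14.0 CPM in the other day 1 cells, 3.22-fold higher (2.39 to 4.36), and it is among the 10 leading genes of that cluster although it was not used to form it. In cluster 12 Trem3 was at 16.3 CPM, 2.77-fold lower than in cluster 8 (1.90 to 4.14). Cluster 8 held 48.7% of the Trem1 UMIs and 66.5% of the Trem3 UMIs of day 1, with 38.2% of all day 1 UMIs and 29.5% of the cells. The share of Trem1 UMIs in monocyte-like clusters was 92.2% when fewer, larger clusters were made at Leiden resolution 0.5, where the monocyte-like cluster held 87.4% of the day 1 cells and 88.7% of the UMIs. Summed monocyte markers, at 430, 4600 and 1914 CPM in the 3 libraries, had the same order as Trem1 and Trem3; their part in those differences was not tested.

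Treml4 was highest on day 1 in cluster 10, where Trem1 was also high. It was at 21.8 CPM in cluster 10 (9.96 to 41.3) against 5.59 CPM in cluster 8, 3.89-fold higher (1.53 to 9.23), and Trem2 in cluster 10 was 1.85-fold lower than in cluster 8 (1.55 to 2.22). These Treml4 values rest on 9 and 17 UMIs, and cluster 12, at 9.31 CPM (5.68 to 14.4), overlapped cluster 10. Neutrophil markers did not separate the Trem1-positive cells: a UMI of at least 1 of the 11 markers was found in 11.1% of Trem1-positive day 1 cells (9 of 81; 5.21 to 20.05) and in 8.78% of Trem1-negative cells. A monocyte marker was found in 95.1% of Trem1-positive day 1 cells (87.8 to 98.6) and in 89.2% of Trem1-negative cells (87.9 to 90.4).

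On day 5, 4 clusters had at least 50 cells, and they differed in their receptors. Cluster 7 (Ccl8, Gdf15; 623 cells) had the highest Trem2 level of all 13 groups of at least 50 cells, at 1726 CPM (1669 to 1785), and held 53.3% of the day 5 Trem2 UMIs. It was followed by cluster 4 at 1130 CPM (1062 to 1201; 683 cells), cluster 10 at 711 CPM (675 to 749; 506 cells) and cluster 1 at 693 CPM. Clusters 10 and 1 did not differ beyond counting error. Trem2 in cluster 7 was 2.43-fold higher than in cluster 10 (2.28 to 2.58), whereas Trem1 was at 3.04 CPM in cluster 7 against 17.5 CPM in cluster 10, 5.76-fold lower (2.40 to 16.8). Tyrobp in cluster 7 was 1.20-fold higher than in cluster 10 (1.16 to 1.24).

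Clusters 10 and 4 held cells of both times after crush, so members could be compared between day 5 and day 1 within them. In cluster 10, Trem2 was at 711 CPM on day 5 against 317 CPM on day 1, 2.24-fold higher (1.88 to 2.71). Trem1 in cluster 10 was at 17.5 CPM on day 5 against 58.1 CPM on day 1, 3.31-fold lower (1.89 to 5.73), and Trem3 was 3.91-fold lower (1.94 to 7.79). Hcst in cluster 10 was at 80.1 CPM on day 5 against 38.7 CPM on day 1, 2.07-fold higher (1.24 to 3.71). In cluster 4, Trem2 was at 1130 CPM on day 5 against 507 CPM on day 1, 2.23-fold higher (1.72 to 2.93). Syk did not differ beyond counting error in cluster 10 (ratio 1.34, 0.822 to 2.30) or cluster 4 (1.92, 0.614 to 9.67), and neither did Trem1 in cluster 4 (0.223, 0.0434 to 1.44). Tyrobp differed in direction between the clusters, with a ratio of 0.932 (0.879 to 0.989) in cluster 10 and 1.17 (1.06 to 1.30) in cluster 4. Hcst in cluster 4 was 3.21-fold higher on day 5 than on day 1 (1.34 to 10.1), from 120 and 5 UMIs. Cluster 4 was shallow, with a median of 1226 UMIs per cell, and so was cluster 5, with 1373.

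The adaptors and the kinase were detected in each of the 13 groups of at least 50 cells. Tyrobp ran from 2349 CPM in cluster 11 on day 1 (2202 to 2503) to 4063 CPM in cluster 4 on day 5 (3933 to 4195). Hcst ran from 19.8 CPM in cluster 11 on day 1 (8.54 to 39.0) to 141 CPM in cluster 1 on day 5 (78.6 to 232). Syk ran from 24.5 CPM in cluster 4 on day 1 to 85.4 CPM in cluster 1 in steady state, and all neighbours in that order had overlapping intervals. The 69 cycling-like cells (Birc5, Stmn1), of which 49 were from day 5, had 609 CPM of Trem2 (519 to 710) and 2021 CPM of Tyrobp. In the 18 dendritic cell-like cells (Ccr7, Ccl17), Syk was at 216 CPM (118 to 362), while Trem1, Trem2, Trem3, Treml4 and Hcst had 0 UMIs.

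**Figure D4:**
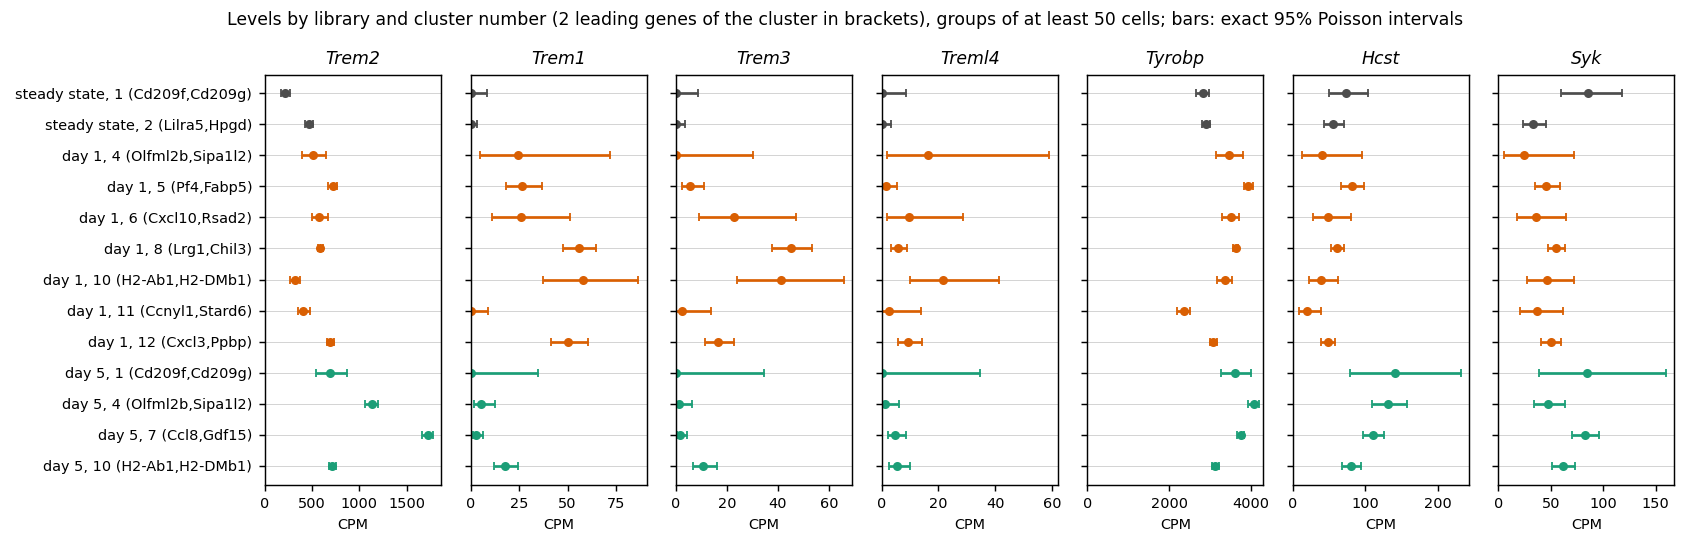
Level in CPM of each gene in the 13 groups of 1 cluster in 1 library with at least 50 cells, with exact 95% Poisson intervals; the 2 leading genes of each cluster are in brackets. Trem2 is highest in cluster 7 on day 5 at 1726 CPM, Trem1 is at 0 in both steady-state groups, and Tyrobp stays between 2349 and 4063 CPM.

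Genes with patterns like the receptors' were ranked by Pearson r of log2(CPM + 10) over the same 13 groups, among 4036 genes with at least 50 CPM in at least 1 group. Most like Trem2 were Syngr1 (r = 0.83), Pld3 (0.83), Lpl (0.81), Gdf15 (0.81) and Ptms (0.79). Lpl encodes lipoprotein lipase and Pld3 a lysosomal phospholipase D family protein. Most like Trem1 were S100a11 (r = 0.96), Mcemp1 (0.95), Glipr2 (0.94), Ifitm1 (0.94) and Gsr (0.93), and r between Trem1 and Trem3 was 0.84 and between Trem1 and Treml4 0.76. Most like Treml4 were Il1r2 (r = 0.91), Avpi1 (0.89), Cdkn1b (0.89), Ctage5 (0.86) and Arpc5 (0.85). Between Trem1 and Trem2 r was -0.03. These correlations describe 13 groups that share 3 libraries and their depths.

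Of the TREM ligand genes, Apoe had its lowest and Lgals3 its highest level on day 1. Both were higher on day 5 than in steady state. Apoe was at 40937 CPM in steady state, 10814 CPM on day 1 and 53930 CPM on day 5. It was 3.79-fold lower on day 1 than in steady state and 4.99-fold higher on day 5 than on day 1. Lgals3, which encodes galectin-3, a reported TREM2 ligand, was at 5083 CPM on day 1 against 315 CPM in steady state, 16.1-fold higher (14.8 to 17.6). On day 5 Lgals3 was at 2214 CPM, 2.30-fold lower than on day 1. Of 5 ligand genes counted, 1 was higher by 2-fold or more and 1 lower between day 1 and steady state, 1 higher and 0 lower between day 5 and steady state, and 1 higher and 1 lower between day 5 and day 1. Over all genes the shares higher and lower were 16.4% and 14.8%, 9.85% and 11.1%, and 4.91% and 5.48% in these comparisons. The median log2 ratios of the 5 ligand genes were 0.06, 0.09 and -0.36.

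In a list of other receptors linked to Tyrobp or Hcst, 4 of 11 counted genes were at least 2-fold higher on day 1 than in steady state. By the same margin 2 were lower (all genes 16.4% higher and 14.8% lower), and the median log2 ratio was 0.75. The list includes Csf1r, and pairing with the adaptors was not tested. Sirpb1c was at 181 CPM on day 1 against 16.3 CPM in steady state and Sirpb1b at 62.5 CPM against 10.3 CPM; these signal-regulatory protein genes are near-identical copies, so the split of reads between them is uncertain. Siglech, known from plasmacytoid dendritic cells and microglia, had 86 UMIs in steady state, 1 UMI on day 1 and 6 UMIs on day 5. Csf1r, the receptor for macrophage colony-stimulating factor, was at 239 CPM on day 1 against 773 CPM in steady state, 3.23-fold lower (3.01 to 3.47), and at 488 CPM on day 5, 2.04-fold higher than on day 1. Between day 5 and steady state 3 of 10 genes were higher and 1 lower (all genes 9.85% and 11.1%), with a median of 0.14. Between day 5 and day 1 the numbers were 1 and 1 of 11 (all genes 4.91% and 5.48%), with a median of -0.39.

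Of the other ITAM adaptors, Fcer1g, the common gamma chain of Fc receptors, was at 3432 CPM in steady state, 4961 CPM on day 1 and 4640 CPM on day 5. It was 1.45-fold higher on day 1 (1.41 to 1.49) and 1.35-fold higher on day 5 (1.31 to 1.39) than in steady state (Tyrobp 1.20-fold and 1.23-fold). Of that list, 2 genes passed 10 CPM. The other was Cd79b, a B cell receptor chain, at 46.5 CPM in steady state, 9.54 CPM on day 1 and 27.2 CPM on day 5, and it accounts for the list's 1 gene at least 2-fold lower on day 1 than in steady state and 1 at least 2-fold higher on day 5 than on day 1. The Src family kinase Fgr was at 1.81 CPM (3 UMIs) in steady state, 49.98 CPM on day 1 and 32.8 CPM on day 5, a ratio of 27.6 between day 1 and steady state (9.38 to 134). Lyn was 1.37-fold higher on day 1 than in steady state (1.12 to 1.69), and between day 5 and day 1 0 of 3 counted Src kinases passed 2-fold in either direction. Between day 1 and steady state 1 of 4 was at least 2-fold higher and 1 lower (all genes 16.4% and 14.8%). Between day 5 and steady state 1 was higher and 0 lower (all genes 9.85% and 11.1%). Between day 5 and day 1 the shares of all genes were 4.91% and 5.48%.

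The shares of genes downstream of Syk past 2-fold on day 1 were close to those of all genes. Of 23 counted genes, 4 were higher by 2-fold or more and 4 lower between day 1 and steady state (all genes 16.4% and 14.8%). Their median log2 ratio was 0.09. Between day 5 and steady state 2 of 23 were higher and 1 lower (all genes 9.85% and 11.1%), with a median of 0.15. Plcg2, phospholipase C gamma 2, was at 9.06 CPM in steady state, 26.6 CPM on day 1 and 31.3 CPM on day 5. It was 2.94-fold higher on day 1 (1.74 to 5.35) and 3.46-fold higher on day 5 (2.04 to 6.31) than in steady state. Blnk, an adaptor phosphorylated by Syk, was at 17.7 CPM on day 1 against 84.5 CPM in steady state, 4.77-fold lower, and at 54.8 CPM on day 5, 3.10-fold higher than on day 1 (2.53 to 3.81). Between day 5 and day 1, 2 of 24 counted genes were higher by 2-fold or more and 0 lower (all genes 4.91% and 5.48%).

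Inhibitors of ITAM signalling include receptors that recruit phosphatases. Cd33, a sialic acid-binding receptor of this list, had 100, 8.79 and 42.0 CPM in steady state, on day 1 and on day 5. It was thus 11.4-fold lower on day 1 and 2.39-fold lower on day 5 than in steady state. Whether Cd33 acts as an inhibitor in these mouse cells was not tested. Siglece, of the same family, was at 47.1 CPM in steady state, 10.9 CPM on day 1 and 18.6 CPM on day 5. Both were thus lowest on day 1. Pirb, a paired immunoglobulin-like inhibitory receptor, was 2.02-fold higher on day 1 than in steady state (1.73 to 2.38). Of 15 counted inhibitors, 2 were higher by 2-fold or more and 2 lower between day 1 and steady state (all genes 16.4% and 14.8%). The numbers were 1 and 3 between day 5 and steady state (all genes 9.85% and 11.1%). Between day 5 and day 1 they were 1 and 2 (all genes 4.91% and 5.48%). The median log2 ratios of the 15 inhibitors were 0.15, -0.08 and 0.11.

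Adam10 and Adam17 encode proteases that cut TREM2 from the cell surface. Adam10 was 1.85-fold higher on day 1 than in steady state (1.28 to 2.76) and Adam17 1.75-fold higher (1.24 to 2.53). Mmp9, a matrix metalloprotease of the same list that is also a neutrophil marker, was at 116 CPM in steady state, 36.4 CPM on day 1 and 9.78 CPM on day 5. Of 9 sheddase and gamma-secretase genes, 0 were higher by 2-fold or more and 2 (Mmp9 and Aph1b) lower between day 1 and steady state, and the same numbers held between day 5 and steady state. Of all genes, 16.4% were higher and 14.8% lower on day 1 than in steady state, and 9.85% and 11.1% on day 5. The list medians were 0.37, 0.43 and -0.04 in the 3 comparisons.

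A list of genes whose induction in mouse brain microglia is known to depend on Trem2 was also counted. Of 19 counted genes, 10 were higher by 2-fold or more and 3 lower between day 1 and steady state (all genes 16.4% and 14.8%). Their median log2 ratio was 1.02. Between day 5 and steady state 8 were higher and 1 lower (all genes 9.85% and 11.1%), with a median of 0.86. Between day 5 and day 1, when Trem2 was 1.91-fold higher, 3 were higher and 6 lower (all genes 4.91% and 5.48%). The median was 0.00. Spp1, which encodes osteopontin, was at 13.9 CPM in steady state, 8178 CPM on day 1 and 2406 CPM on day 5. Gpnmb had 0 UMIs in steady state, 136 CPM on day 1 and 129 CPM on day 5. Axl, a receptor for dying cells, was at 71.0 CPM on day 5 against 14.2 CPM on day 1, 5.00-fold higher (4.05 to 6.22). Apoe and Lgals3 are in both this list and that of the ligands, and whether any of these differences depended on Trem2 was not tested.

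**Figure D5:**
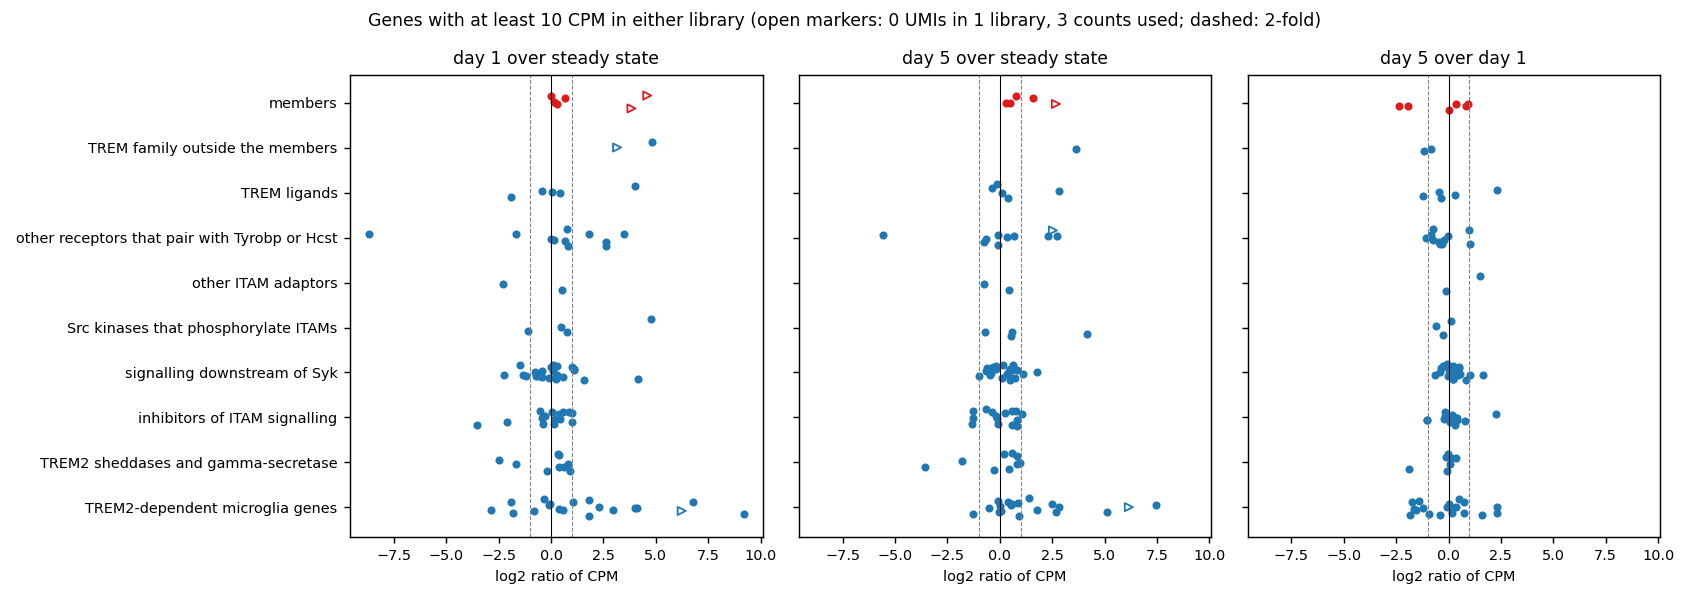
log2 ratio of CPM of the 7 members (red) and of the genes of 9 pathway lists (blue) between day 1 and steady state, day 5 and steady state, and day 5 and day 1, for genes that reach 10 CPM in 1 or both libraries; dashed lines mark 2-fold and open triangles genes with 0 UMIs in 1 library. Trem1 is among the highest members on day 1 over steady state and lies below the lower dashed line on day 5 over day 1.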

How the data were processed

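Per the labels, each sample is 1 droplet library (10x Genomics, v1). Cell Ranger 2.0.2 and the build mm10 are listed, with no role, in the submitters' processing notes. The tables deposited by the authors hold whole-number UMI counts per gene and barcode, not normalized. A deposited table that pools the libraries was not used, and the arrays and bulk libraries of the series were not analysed here.

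Barcodes with at least 200 genes and at most 10% mitochondrial UMIs were kept, 5580 of 5586. The doublet caller in scanpy 1.11.5 marked 18 cells (0.323%), too few to be relied on, so doublets were kept and remain possible. The sources used here do not say if they were removed before deposit. CPM have exact Poisson intervals, shares of cells Clopper-Pearson intervals and ratios exact conditional binomial intervals, all at 95% (scipy 1.17.1). They cover counting error only; a count of 0 was replaced by 3 counts for ratios. Cells were thinned to 1000 UMIs for shares and joint detection. Clusters came from the Leiden algorithm at resolution 1 (2000 variable genes, 30 components, 15 neighbours), with the 7 genes and the genes of 9 lists left out of the variable genes. A cluster was named when at least 3 markers of a class were at least 2-fold above the other cells, at least 2 of them among its 10 leading genes. The fibroblast-like cells come from clusters made with no gene left out. The ratio and interval code was tested on simulated counts.

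The text names all 7 genes, up to 4 genes per list and comparison whose ratio is furthest from 1 (minimum 20 CPM in 1 library), and the 5 genes most like Trem2, Trem1 and Treml4. Not every gene that this rule picks is reported here. The genes and lists were chosen with earlier results of these data known. Of the names written in the lists and markers, 3 (Trem6l, Trac and Trbc2) had no entry in the tables.

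The alternatives were median-of-ratios scaling, all deposited barcodes, called doublets left out, the dendritic cell-like cluster left out, thinning to 500 or 1500 UMIs, Leiden resolution 0.5, no gene left out, and a minimum of 50 CPM or none for counting genes.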

Additional observations from a re-analysis of the deposited data

How the results depend on the processing

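The 21 log2 ratios of the 7 genes stayed within their counting intervals under median-of-ratios scaling, with all deposited barcodes, without called doublets and without the dendritic cell-like cluster. Median-of-ratios scaling shifted all log2 ratios by -0.01, 0.01 and 0.02 in the 3 comparisons. Shares of cells depend on depth: Trem2 was found in 14.1%, 24.9% and 38.0% of steady-state, day 1 and day 5 cells thinned to 500 UMIs, and in 29.97%, 50.02% and 69.6% thinned to 1500, in the same order. Trem2 was found in 15.1% of Trem1-positive and 25.1% of Trem1-negative day 1 cells at 500 UMIs, and in 41.7% and 50.5% at 1500, so the Trem1-positive share was the lower at all 3 thinned depths, with overlapping intervals. The share of day 1 Trem1 UMIs in monocyte-like clusters was 92.2% at resolution 0.5 and 41.5% with no gene left out of the variable genes, against 48.7% as reported. These clusters held 88.7%, 14.6% and 38.2% of the day 1 UMIs. With a minimum of 50 CPM fewer genes were counted. List genes at least 2-fold higher and lower were then 14 and 7 between day 1 and steady state, 10 and 5 between day 5 and steady state, and 5 were higher between day 5 and day 1. With no minimum, 13 list genes were lower between day 5 and steady state and 13 higher between day 5 and day 1. These list counts, and those over all genes that follow, lack the number of genes counted. No share is read from them. Over all genes, a minimum of 50 CPM left 516 higher and 348 lower between day 1 and steady state, 204 and 247 between day 5 and steady state, and 86 and 163 between day 5 and day 1; no minimum gave 1872 and 2411, 1398 and 1753, and 1328 and 1093. No paired analysis was possible because each time point has 1 library. Without replicates the spread between animals is unknown, and genes with few UMIs, such as Treml4, are limited by depth.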
